A study of Mus musculus with 8 samples.

Results

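Osteopontin, encoded by Spp1, is a secreted phosphoprotein that cells bind through integrins and through the hyaluronan receptor CD44. The genes described here are Spp1 itself, its neighbour Dmp1, Cd44 and the integrin alpha and beta subunits, taken by gene name from the authors' deposited table of genes that differed between Spp1 knockout and wild-type astrocyte cultures. Of 29 annotated genes with such a name, 12 were among the 3624 genes listed: Spp1, Dmp1, 8 alpha subunits and 2 beta subunits. Spp1 fell 59.6-fold in the knockout, Dmp1 fell too, 7 integrin subunits rose and 3 fell.

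Integrins are adhesion receptors made of an alpha and a beta subunit, and the pair decides which matrix protein or cell surface ligand is bound. Osteopontin carries the tripeptide arginine-glycine-aspartate (RGD), which is read by alpha-v, alpha-5 and alpha-8 integrins, followed by a cryptic site that alpha-4 and alpha-9 integrins read after thrombin has cut beside it. In neural tissue osteopontin is known chiefly as a product of activated microglia, macrophages and some neurons, and reactive glia can also make it.

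The sequenced RNA came from primary cultures of astrocytes, taken from retinas and optic nerves of mice at postnatal day 1 to 3 and grown in medium with 10% serum. The control group held 4 wild-type samples of strain C57BL/6, and the other group held 4 Spp1-/- samples of strain B6.129S6(Cg)-Spp1tm1Blh/J. No label gives sex, litter or culture, so p-values here reflect just the spread among these 8 samples, which may be technical. The table had 0 columns of per-sample values, and sequencing depth per sample is unknown. Each listed gene had a normalized count averaged over the samples, a log2 fold change, the standard error of that change, and an adjusted p-value from the authors' test over all genes they tested. Levels per genotype, called implied means below, were worked out from the mean count and the fold change with both groups taken as equal in size. They carry no spread of their own, and whether single samples of the groups overlapped cannot be seen.

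The coding stretches that hold the RGD site are shown because it is the part of osteopontin that integrins read. They are given for osteopontin and DMP1, and for vitronectin (Vtn) and nephronectin (Npnt), ligands of the same integrins that moved in opposite directions. Capitals mark the 9 bases that encode RGD, and each line is spliced coding sequence, 5′ to 3′ on the gene's strand, from GENCODE M21 on GRCm38.
Spp1: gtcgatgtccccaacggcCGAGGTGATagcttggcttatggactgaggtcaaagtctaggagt
Dmp1: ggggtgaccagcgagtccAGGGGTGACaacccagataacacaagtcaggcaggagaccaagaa
Vtn: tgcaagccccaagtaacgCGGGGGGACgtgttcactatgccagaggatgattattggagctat
Npnt: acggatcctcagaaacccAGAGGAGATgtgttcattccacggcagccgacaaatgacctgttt

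The Spp1 stretch lies at chr5:104439463-104439525 on the plus strand, in exon 5 of the 6 exons of the transcript used, with the arginine codon at position 144 of 294 counted from the start codon. The bases after its capitals encode the cryptic site. The Dmp1 stretch lies at chr5:104212489-104212551 on the plus strand in the last of 6 exons, with the arginine codon at position 350 of 503. The Vtn stretch runs over the junction of exons 2 and 3 within chr11:78499610-78499750 on the plus strand, and the Npnt stretch over exons 8 and 9 within chr3:132891460-132904691 on the minus strand. Codons for RGD were found in 7.17% of the 21554 protein-coding genes searched, so the tripeptide alone does not mark an integrin ligand.

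Spp1 was read first, since it is the deleted gene and its sign gave the direction of the whole table. The gene lies at chr5:104435118-104441050 on the plus strand. Its log2 fold change in the authors' deposited table was -5.90 with a standard error of 0.11 (95% interval -6.11 to -5.68), and its adjusted p was printed as 0. The absolute Wald statistic of Spp1, its fold change over the standard error, ranked 1 among all listed genes. The implied level in the knockout was 1.68% of that in wild type, or 441 against 26271 normalized counts. Per kilobase of transcript, the implied wild-type level of Spp1 was 17433, above that of every listed integrin subunit. What remained in the knockout was still 293 per kilobase, more than the 165 of Itga8 in the same cultures. Which exons the allele lacks was not given in the sources used here. Remaining counts could not be placed along the transcript.

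Dmp1 encodes dentin matrix protein 1, which belongs with osteopontin to the SIBLING family of acidic matrix phosphoproteins of bone and tooth. It lies at chr5:104202613-104214102, 221 kb from Spp1 on the same strand. The authors' deposited table gave it a log2 fold change of -2.50 with a standard error of 0.38 (95% interval -3.25 to -1.75, adjusted p = 1.35e-09). This is a 5.64-fold lower level, from an implied 88.1 to 15.6 normalized counts. Dmp1 was a low transcript in both genotypes, with 31.9 implied counts per kilobase in wild type. Of the other SIBLING genes, which lie in the same cluster, Ibsp, Mepe and Dspp were not listed. A gene that is not listed may have missed either limit of the table or may not have been tested, so none is read here as showing no difference.

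Dmp1 was not the only gene near Spp1 on the list. Within 2 Mb of Spp1, 8 of 30 protein-coding genes were listed, 7 higher and Dmp1 lower, and all 8 lay within 1 Mb. That is 26.7% of the genes there, beside 16.0% of all annotated protein-coding genes and 21.8% of the roughly 16600 genes tested. The share within 10 Mb was 16.5%. With so few genes, 5 of them from 1 gene family, the share within 2 Mb is not read as different from these. The higher genes were the steroid dehydrogenase gene Hsd17b11 on the Dmp1 side and, beyond Spp1, the transporter gene Abcg3 and 5 guanylate-binding protein genes. In the authors' deposited table these ran from a log2 fold change of 0.86 for Hsd17b11 (standard error 0.11) to 3.69 for Abcg3 (0.83). Pkd2, which lies 18.4 kb from Spp1, was not listed. The name of the knockout strain records that the allele came from a strain other than C57BL/6. Effects of the deletion and of flanking sequence from that strain on these genes, Dmp1 included, cannot be told apart in this design. The groups also differed in macrophage markers and in chromosome Y genes, as given below, and the part of these differences was not tested.

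**Figure D1:**
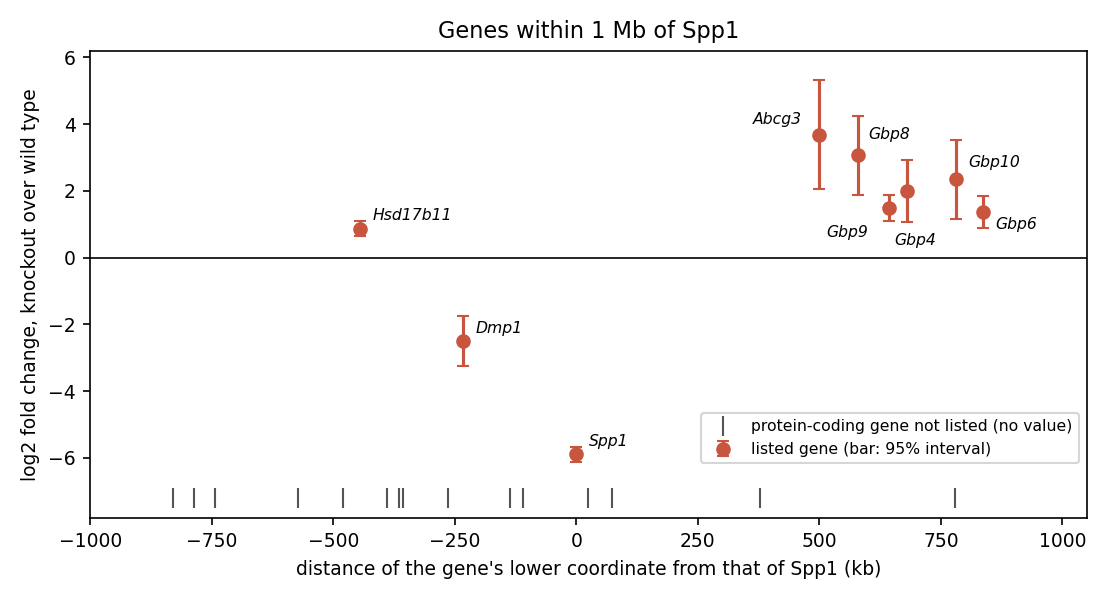
Log2 fold change (knockout over wild type, with 95% interval) of listed protein-coding genes within 1 Mb of Spp1 against their distance from Spp1 in kb; grey ticks at the bottom are genes that were not listed and have no value. Spp1 (-5.90) and Dmp1 (-2.50) are the only points below 0, and 6 of the 7 higher genes lie on the side of Spp1 away from Dmp1.

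The receptor genes changed in both directions. Of 26 annotated integrin subunit genes 10 were listed (38.5%), beside 16.0% of annotated protein-coding genes and 21.8% of the roughly 16600 genes the authors tested. How many of the 26 were tested is not known. Higher members made up 7 of the 10, where 54.9% of all listed genes were higher, and 3 were lower, where 45.1% of all were. The median log2 fold change of the 10 was 1.23, beside 0.66 over all listed genes, and their median absolute value was 1.33 beside 1.14. Ordered by fold change, neighbouring subunits had overlapping 95% intervals at every step except the step from Itga8, the smallest rise, to Itgav, the smallest fall. Overlap of intervals does not show that 2 genes are alike, and neighbouring subunits were not compared by a test. The order within the rises and within the falls is therefore not read further. Only 4 rises (Itgam, Itgb4, Itgb2 and Itga4) and, with Dmp1, 2 falls (Itga7 and Dmp1) had an interval wholly beyond the fold limit of the table.

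**Figure D2:**
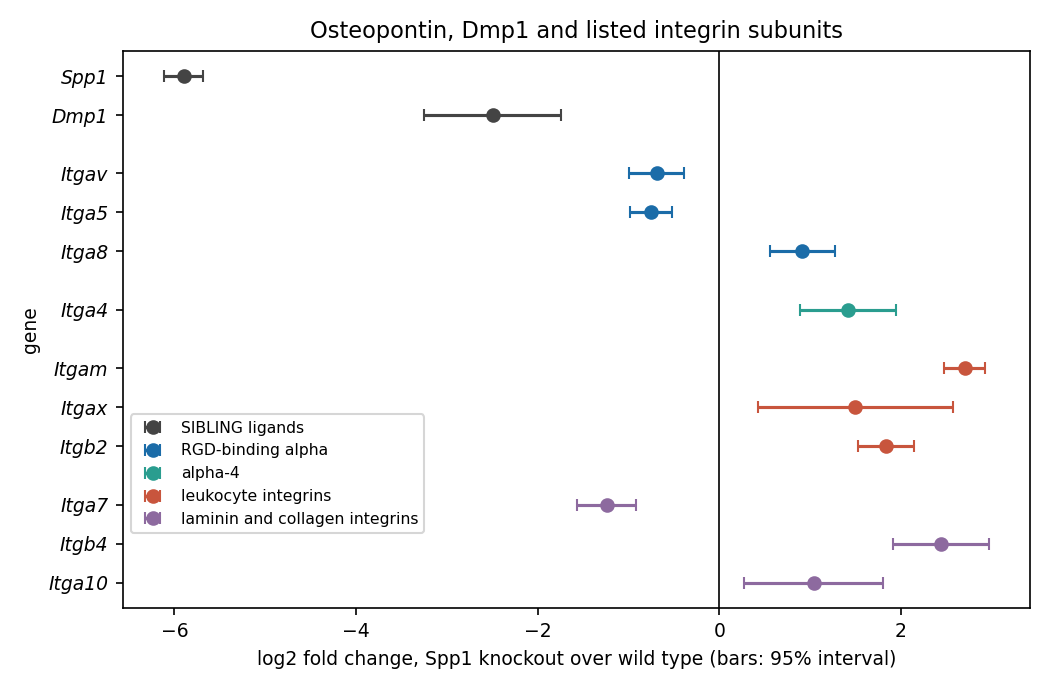
Log2 fold change of each listed gene, knockout over wild type, with its 95% interval from the deposited standard error; colours mark the ligands and the integrin families. The listed leukocyte integrin subunits all lie above 0, from 1.50 (Itgax) to 2.70 (Itgam), while the listed RGD-binding alpha subunits lie on both sides.

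Among the RGD-binding receptors the abundant alpha subunits fell and a scarcer one rose. Itgav encodes alpha-v, the shared subunit of the classical osteopontin and vitronectin receptors. It fell by 0.69 on the log2 scale in the authors' deposited table (standard error 0.15, adjusted p = 6.64e-05), from an implied 13797 to 8547 normalized counts. Itga5 encodes alpha-5, which pairs with beta-1 as the main fibronectin receptor. The authors' deposited table gave Itga5 a log2 fold change of -0.75 (standard error 0.12, adjusted p = 3.71e-09), from an implied 5868 to 3495. Both genes thus stood at about the same share of their wild-type level, 62.0% for Itgav and 59.6% for Itga5. Itga8 encodes alpha-8, which pairs with beta-1 and binds nephronectin and osteopontin. It rose by 0.91 in the authors' deposited table (standard error 0.18, adjusted p = 6.52e-06), from an implied 510 to 961. The intervals of Itga8 (0.55 to 1.27) and Itgav (-0.99 to -0.39) did not overlap. None of the beta partners of alpha-v, Itgb1, Itgb3, Itgb5, Itgb6 and Itgb8, was listed. Itgav lies at chr2:83724397-83806916, Itga5 at chr15:103344286-103366763 and Itga8 at chr2:12106632-12301922.

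Of the receptors for the cryptic site, Itga4 was listed and Itga9 was not. Itga4 encodes alpha-4, found on leukocytes and neural crest cells, which also binds VCAM-1 and fibronectin. It lies at chr2:79255426-79333123, 4.39 Mb from Itgav. The authors' deposited table gave Itga4 a log2 fold change of 1.42 (standard error 0.27, adjusted p = 1.72e-06), a 2.67-fold rise (95% interval 1.85 to 3.86) from an implied 229 to 612 normalized counts. Its partners Itgb1 and Itgb7 were not listed. Cd44, the osteopontin receptor outside the integrin family, was not listed either. Of the 5 alpha subunits counted here as binding osteopontin through RGD or the cryptic site, 4 were therefore listed, 2 higher and 2 lower.

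The leukocyte integrin subunits that were listed rose. Itgam encodes alpha-M (CD11b), which with beta-2 forms complement receptor 3 of microglia, macrophages and neutrophils. It rose by 2.70 on the log2 scale in the authors' deposited table (standard error 0.12, adjusted p = 8.79e-119), a 6.52-fold higher level (95% interval 5.57 to 7.62) from an implied 1128 to 7349 normalized counts. By absolute Wald statistic Itgam ranked 8 among all listed genes. Itgb2 encodes beta-2 (CD18), the shared partner of the leukocyte alpha subunits. The authors' deposited table gave Itgb2 a rise of 1.83 (standard error 0.16, adjusted p = 9.8e-30), from an implied 826 to 2940. Itgax encodes alpha-X (CD11c), which pairs with beta-2 in dendritic cells and activated microglia. It rose by 1.50 (standard error 0.55, adjusted p = 0.0239) in the authors' deposited table, from an implied 11.7 to 33.0 counts, and its interval of 0.43 to 2.57 was the widest of the subunits. Itgal, Itgad and Itgae, the other alpha subunits of leukocytes, were not listed.

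Markers of microglia and macrophages rose beside these subunits. Of 24 markers 23 were listed. All 23 were higher, with log2 fold changes from 0.91 to 4.36 and a median of 2.22. Their summed implied mean was 42241 normalized counts in wild type and 196416 in the knockout, a ratio of 4.65. Tmem119 was the marker not listed. The values of all 7 higher subunits, those outside the leukocyte family included, lay inside the range of the markers. Among markers of T and natural killer cells 2 of 15 were listed (13.3%), 1 higher and 1 lower, and among those of dendritic cells and granulocytes 1 of 11 (9.09%). Over all annotated protein-coding genes the share was 16.0%, and with so few markers neither share is read as different from it. In bulk cultures more cells of a type and more RNA per cell cannot be told apart, and the part of macrophage-lineage cells in the rise of the leukocyte subunits was not tested.

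Itgam and Itgax are neighbours, at chr7:128062640-128118491 and chr7:128129547-128150657, 11.1 kb apart with no annotated protein-coding gene wholly between them. The 100 bases before their RefSeq start sites (GRCm38.p6) are shown because both genes rose and lie side by side. Capitals mark GAGGAA or its reverse complement TTCCTC, a core of sites for PU.1 (Spi1) and other ETS factors.
Itgam: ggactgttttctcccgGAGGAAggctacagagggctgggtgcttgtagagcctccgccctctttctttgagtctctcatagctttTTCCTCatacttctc
Itgax: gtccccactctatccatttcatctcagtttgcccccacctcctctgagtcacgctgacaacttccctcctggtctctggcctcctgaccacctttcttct

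These stretches lie on the plus strand at chr7:128062540-128062639 and chr7:128129450-128129549. The motif was searched on both strands from 250 bases before to 50 bases after each start site. Of the 12 genes 9 had such a window, with 11 windows in all. The motif was in 5 of the 11, 1 each of Itgam, Itgav, Itga5, Spp1 and Dmp1, beside 28.3% of all 32851 windows. Of the genes with the motif, Itgam rose and Itgav, Itga5, Spp1 and Dmp1 fell. The windows of the higher genes Itgax, Itga4, Itga8 and Itga10 held none. Whether the motif goes with the direction was not tested. Spi1, also counted among the macrophage markers above, rose by 1.60 (standard error 0.22) in the authors' deposited table.

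The laminin and collagen receptors went both ways. Itga7 encodes alpha-7, a laminin receptor best known from muscle. It had the largest fall of the subunits, -1.24 in the authors' deposited table (standard error 0.16, adjusted p = 7.84e-13), from an implied 2320 to 981 normalized counts. Itgb4 encodes beta-4, which pairs with alpha-6 in epithelial hemidesmosomes and in Schwann cells. The authors' deposited table gave Itgb4 a rise of 2.44 (standard error 0.27, adjusted p = 4.37e-18), from an implied 105 to 567, while its partner Itga6 was not listed. Itga10 encodes alpha-10, a collagen receptor of cartilage. It rose by 1.04 (standard error 0.39, adjusted p = 0.0283) in the authors' deposited table, from an implied 44.3 to 91.0. Itga7 lies at chr10:128933818-128958282, Itgb4 at chr11:115974709-116008412, Itgb2 at chr10:77530252-77565708 and Itga10 at chr3:96645584-96664519. Beside these genes 12 of 14 oligodendrocyte and Schwann cell markers were listed (85.7%, against 21.8% of genes tested) and all 12 were lower. Of 10 fibroblast and meningeal markers 7 were listed (70%) and all 7 were higher. The part of either set of markers in the changes of Itga7, Itgb4 and Itga10 was not tested.

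Levels were compared between genes only per kilobase of transcript. In wild type the implied order was led by Itgav (1956 normalized counts per kilobase), followed by Itga5 (1339), Itga7 (577), Itgb2 (278) and Itgam (241). In the knockout it was led by Itgam (1570), followed by Itgav (1212), Itgb2 (990), Itga5 (798) and Itga7 (244). Itgam thus moved from place 5 to place 1 among the 10 listed subunits, and the ratio of Itgav to Itgam went from 8.12 to 0.77. With the length of all exons of a gene together, Itgam kept its places but others did not. In the knockout Itgb2 (963) then passed Itgav (796), and Itga8 (130) passed Itga7 (121). The spread of these levels between samples is unknown, so neighbours in either order may not differ. Itga8, Itgb4, Itga4, Itga10 and Itgax filled the last 5 places in wild type and were no higher than 165 per kilobase (Itga8) in the knockout, with Itgax lowest at 2.89 and 8.17.

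**Figure D3:**
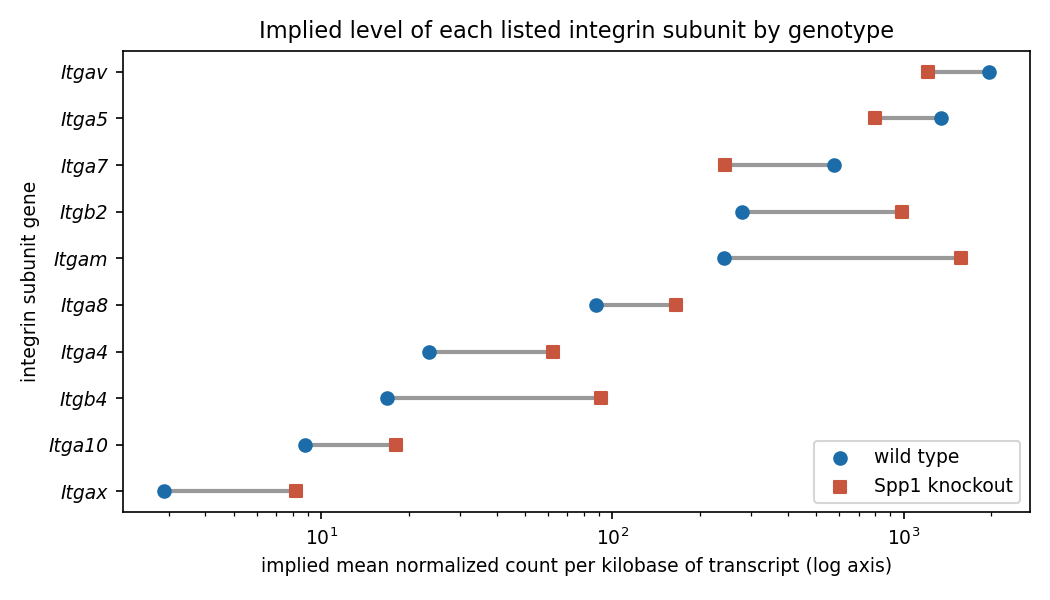
Implied mean normalized count per kilobase of transcript (log axis) of each listed integrin subunit in wild type (circles) and knockout (squares), without error bars because no per-sample values were used. Itgam goes from 241 to 1570 and passes Itgav, which goes from 1956 to 1212.

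Set against the 24 known mouse integrin pairs, 2 pairs had both subunits listed, alpha-M with beta-2 and alpha-X with beta-2, and both subunits of each were higher. Another 14 pairs had a single listed subunit, and 8 had none. Of the 9 pairs counted here as binding osteopontin, 6 through RGD and 3 through the cryptic site, none had both subunits listed. Pairs that may bind osteopontin in other ways were not counted. For the 9 pairs counted, the listed differences concern the alpha chain alone.

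Of the other ligands that share these receptors, more were lower than higher. Of 27 genes for ligands and cell-binding partners of alpha-v, alpha-4, alpha-5, alpha-8 and alpha-9 integrins 16 were listed (59.3%, beside 21.8% of genes tested). Of these 11 were lower and 5 higher, where 45.1% of all listed genes were lower. Their median log2 fold change was -1.02. The matricellular gene Ccn2 stood at -1.57 (standard error 0.11) and Npnt, the alpha-8 ligand whose RGD stretch is shown above, at -1.62 (0.12) in the authors' deposited table. Vtn, the classical ligand of alpha-v, rose by 4.31 (0.36) in the authors' deposited table, from an implied 34.9 to 691 normalized counts. Tgfbi, a matrix protein of the fasciclin family, rose by 1.98 (0.14) in the authors' deposited table. The thrombospondin genes Thbs1 and Thbs2 and tenascin-C (Tnc) had log2 fold changes of -1.37, -0.90 and -1.05 there. Codons for RGD were found in 8 of the 16 listed ligands, 5 of them lower and 3 higher. Whether each of these is a site that integrins read, and whether it goes with the direction, was not tested.

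Ligands of the laminin, collagen and leukocyte receptors were also mixed. Of 22 laminin, collagen and nidogen genes 8 were listed (36.4%, beside 21.8% of genes tested). Of these 5 were lower and 3 higher, where 45.1% of all listed genes were lower. Col6a3, a chain of collagen VI, stood at -1.02 (standard error 0.16) and Col5a1, of collagen V, at -0.71 (0.09), while Col3a1, also counted among the fibroblast markers, rose by 0.84 (0.14) and Lama1 by 0.99 (0.18), in the authors' deposited table. The median log2 fold change of the 8 was -0.68. Among 10 ligands of leukocyte integrins 4 were listed (40%), 3 higher and 1 lower, with a median of 2.52. C3, whose fragment iC3b is bound by alpha-M beta-2, rose by 3.98 (0.24) in the authors' deposited table, F11r, a junctional adhesion molecule, by 1.41 (0.24), and Cdh1, the E-cadherin gene bound by alpha-E integrin, by 3.62 (0.63) from an implied 5.57 counts. Thy1, an astrocyte integrin ligand on neurons, fell by 1.26 (0.13) in the authors' deposited table.

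Enzymes that act on osteopontin were higher where listed. Of 16 genes for its proteases, kinase, crosslinking enzyme and phosphatases 6 were listed (37.5%, beside 21.8% of genes tested). All 6 were higher, where 54.9% of all listed genes were, and their median log2 fold change was 1.55. The listed macrophage markers (23 of 23) and fibroblast markers (7 of 7) were higher beside them, and their part was not tested. Mmp3, a metalloprotease that cleaves osteopontin near its RGD site, rose by 2.46 (standard error 0.13) in the authors' deposited table. Tgm2, a transglutaminase that crosslinks osteopontin, rose by 2.64 (0.16), and Plau, the urokinase gene of the plasminogen system, by 1.92 (0.14), in the authors' deposited table. Fam20c, the Golgi kinase that phosphorylates SIBLING proteins, rose by 1.10 (0.16) in the authors' deposited table. Alpl, a phosphatase gene, and Ctsd, which encodes the lysosomal protease cathepsin D, made up the 6. Thrombin (F2) was not listed.

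Genes around Cd44 changed in both directions. Of 17 genes for hyaluronan synthesis, binding and turnover 6 were listed (35.3%, beside 21.8% of genes tested), 4 lower and 2 higher, with a median of -0.83. Tnfaip6, which transfers heavy chains to hyaluronan, fell by 1.74 (standard error 0.22), Hapln1, a link protein, by 1.70 (0.36), and Hmmr, a hyaluronan-binding protein of the mitotic spindle, by 0.86 (0.14) in the authors' deposited table. Stab2, an endocytic hyaluronan receptor, rose by 6.30 (0.82) in the authors' deposited table, from an implied 1.31 to 103 counts, so the size of its fold rests on a wild-type level near 0. The ERM linker genes Ezr, Rdx and Msn, which tie Cd44 to actin, were not listed.

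Intracellular partners of integrins also went both ways. Of 41 adaptor and kinase genes 15 were listed, 9 higher and 6 lower. Their median log2 fold change was 1.40. The share listed was 36.6%, beside 21.8% of genes tested. In the authors' deposited table the kinase gene Syk rose by 2.56 (standard error 0.14), Pik3cg by 2.66 (0.18), the exchange factor gene Vav1 by 2.22 (0.20) and the adaptor gene Fyb by 2.36 (0.21). Among the lower genes were Zyx (zyxin), Tns1 (tensin) and Bcar1 (p130Cas), which encode focal adhesion proteins, with -0.97, -0.92 and -0.72 in the authors' deposited table. The kindlins, which activate integrins from inside the cell, showed both directions. Fermt3, the kindlin of blood cells, rose by 2.07 (0.19) and Fermt2, the kindlin of most adherent cells, fell by 0.68 (0.09) in the authors' deposited table. Macrophage markers were higher beside the 9 higher genes, as given above, and their part was not tested.

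**Figure D4:**
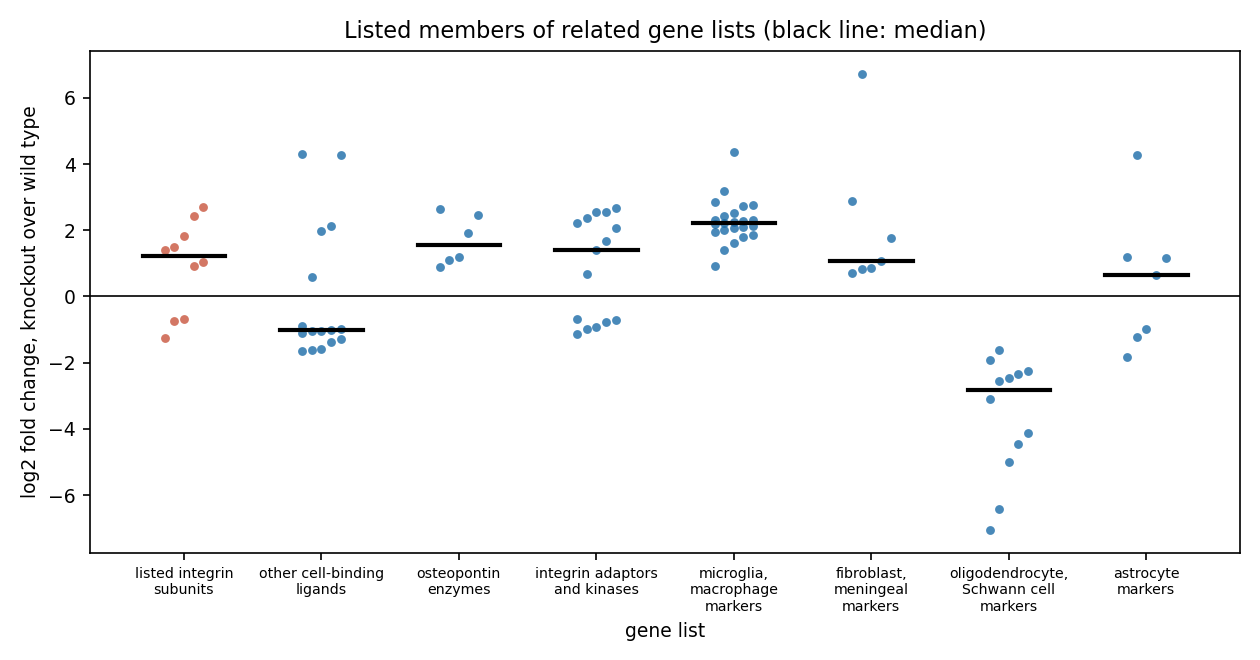
Log2 fold change (knockout over wild type) of the listed members of 8 gene sets, each point a gene and each black line the median of the listed members. The integrin subunits (median 1.23) and the adaptors (1.40) hold genes on both sides of 0. The 23 macrophage markers, 7 fibroblast and meningeal markers and 6 osteopontin enzymes are all above it. The 12 oligodendrocyte and Schwann cell markers are all below.

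Astrocyte markers were set beside the label of the cultures. Of 14 astrocyte markers 7 were listed (50%, beside 21.8% of genes tested), 4 higher and 3 lower. The mean normalized counts of Gfap and Aqp4 were 75119 and 25052 in the authors' deposited table, so these 2 markers were abundant. The other listed astrocyte markers ran from 122 (Pax2) to 6424 (Fabp7). Lyz2, the most abundant of the listed macrophage markers, had a mean of 47053. These counts do not give the share of astrocytes in the cultures. The listed astrocyte markers did not move one way. In the authors' deposited table Gjb6, a connexin gene, Aldoc, Aqp4 and Gfap were higher, by 4.28, 1.18, 1.15 and 0.66 on the log2 scale. S100b, Fabp7 and Pax2 were lower there, with -1.82, -1.23 and -0.98. Of 10 endothelial markers 3 were listed (30%), 2 higher and 1 lower. Of 9 genes of bone and mineral matrix 1 was listed (11.1%), lower. With so few genes neither share is read as different from the 21.8%. Of the listed genes 6 lie on chromosome Y, 5 higher and 1 lower. In the authors' deposited table the 5 higher ones ran from 5.91 for Kdm5d (standard error 0.25) to 13.26 for Ddx3y (1.03). Gm21748 was lower, at -1.86 (0.22). By the 5 higher genes the groups differed in their content of male cells. The sex of the cultures is not in the labels, and sex and genotype cannot be told apart for any gene given here.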

How the data were processed

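The labels describe 8 RNA samples, 4 per genotype. Per the submitters' processing notes, the tools were CASAVA 1.8, STAR 2.7 and DESeq2 1.30.1 with build GRCm38, in roles that are not stated. The annotation, counter and filters were not given in the sources used here. Per the file headers, the authors deposited 1 comparison. The deposited columns hold a normalized count averaged over samples (a signal), a log2 fold change and that change's standard error (both log2), the Wald statistic (a score), and p-values before and after adjustment. In the deposited table no adjusted p-value exceeded 0.0499 and no log2 fold change was smaller in size than 0.58.

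The deposited values were used without refitting, since a table with 0 columns of per-sample values allows no count model, and the tests planned for such columns were not run. The fold change was read as knockout over wild type from the sign of Spp1. Intervals (95%) reach 1.96 standard errors to either side of the fold change. The number of genes tested was estimated by undoing the p-value adjustment in 20 genes, a step tested on simulated data. Positions, transcript lengths (longest principal transcript) and coding sequences came from GENCODE M21 and promoters from RefSeq GRCm38.p6. Work was done in Python 3.11.15 with pandas 2.3.3.

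The members and the 18 lists were chosen with earlier results of these data known, and no list was tested. Every member is named; of each other list up to 4 genes with the smallest adjusted p were eligible, and further genes were named after their values were seen. Alternatives were the limits on fold, mean count and adjusted p, the interval, the leukocyte subunits and the distance from Spp1.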

Additional observations from a re-analysis of the deposited data

How the results depend on the processing

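No paired analysis was possible because the deposited table has 0 columns of per-sample values. For the same reason no replicate could be left out and no other count test or count filter could be run. Apart from Spp1, 7 members were higher and 4 lower as deposited. Asking for a log2 fold change of 1 or more in size left 6 higher and 2 lower. A mean count of at least 100 left 5 and 3, an adjusted p of at most 0.001 left 5 and 4, and a 95% interval wholly beyond the fold limit left 4 and 2. Without the leukocyte subunits 4 were higher and 4 lower. Each of these counts is a subset of the deposited one, and no direction can turn under them. Genes listed near Spp1 numbered 7 higher and 1 lower within 1 or 2 Mb, 13 and 3 within 5 Mb, and 22 and 11 within 10 Mb. Of 66 recomputed list counts that were above 0 as deposited, 50 stayed within 1.5 times that count and 16 fell further. With the length of all exons of a gene together, a choice made after the values were seen, Itgam held place 5 in wild type and place 1 in the knockout, while in the knockout Itgb2 passed Itgav and Itga8 passed Itga7. Sequencing depth per sample is unknown, and Itgax, Itga10 and Dmp1, with mean counts under 100, carry the widest intervals among the members.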

Other observations

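Other genes that meet osteopontin or integrins at the cell surface were looked up after the values were seen, so they are given without a test. Over all genes tested 21.8% were listed, and 54.9% of all listed genes were higher. Because of the late choice, shares of these lists are not read as results. Of 9 tetraspanins, membrane organisers that associate with integrins, 6 were listed (66.7%), 4 higher and 2 lower. Cd53 and Cd37, tetraspanins of leukocytes, rose by 2.82 (standard error 0.14) and 1.83 (0.27), and Tspan18 fell by 1.27 (0.22), in the authors' deposited table. Of 12 ADAM genes, whose disintegrin domains can bind integrins, 5 were listed (41.7%), 2 higher and 3 lower. Adam8, an ADAM of myeloid cells, rose by 2.27 (0.12), while Adam23 and Adam19 stood at -1.59 (0.17) and -1.03 (0.12) in the authors' deposited table.

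The CCN genes, which encode matricellular ligands of alpha-v integrins and partly overlap the ligand list above, gave 4 lower and 1 higher of 6. That is 83.3% listed, beside 21.8% of genes tested. Ccn3 and Ccn4 stood at -1.44 (standard error 0.12) and -1.46 (0.18), and Ccn5 rose by 0.87 (0.21), in the authors' deposited table. Of 7 other partners of osteopontin or integrins 6 were listed (85.7%), 2 higher and 4 lower. Their median on the log2 scale was -0.91. Icosl, the ICOS ligand gene whose product has been described as another osteopontin receptor, rose by 1.72 (0.28) and Lgals3, the galectin-3 gene, by 1.04 (0.20) in the authors' deposited table. Cav1, the caveolin-1 gene, stood at -1.20 (0.14) and Sdc1, the syndecan-1 gene, at -0.85 (0.17) in the authors' deposited table. Sema7a, a semaphorin that acts through beta-1 integrin, fell by 2.11 (0.21), from an implied 2369 to 549 normalized counts, and Plaur, the urokinase receptor gene, fell by 0.96 (0.29) in the authors' deposited table while Plau rose. The receptor and its protease thus had opposite signs in these cultures.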
